A study of Mus musculus with 8 samples.

Results

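Granulopoiesis, the making of neutrophils in the bone marrow, is run by a small set of transcription factors, and 10 of their genes are described here in neutrophils from WT mice and from Padi4 KO mice, with and without R848. The 10 genes, Cebpa, Cebpb, Cebpd, Cebpe, Cebpz, Spi1, Gfi1, Runx1, Fli1 and Myb, were taken by symbol from a table of 24421 genes, all 10 were found, and all 10 were tested and had at least 10 counts on average over the libraries. Neutrophils of 8-week-old female mice on the C57BL/6 background, WT or Padi4 KO, were separated magnetically from bone marrow and were either left without stimulation or given R848, an agonist of Toll-like receptor 7, at 1 µg/ml. There were 4 groups of 2 libraries: WT unstimulated, WT after R848, Padi4 KO unstimulated and Padi4 KO after R848. Padi4 KO mice lack exon 1 of Padi4, which encodes the enzyme peptidylarginine deiminase 4, in every tissue, so the genotypes differ during the formation of the neutrophils as well as in culture. Cells with R848 were kept for 6 h. For unstimulated cells the sample titles give 0 h and the protocol 6 h, so the response to R848 cannot be told apart from that to culture if the titles hold. The labels do not say whether libraries of a group came from separate mice, and p-values then measure the spread between these libraries, which may be technical.

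C/EBP factors are leucine zipper proteins that bind DNA as pairs through a basic region. C/EBPα, with PU.1 (the product of Spi1), drives progenitors into the granulocyte line, C/EBPε is needed for the later stages in which specific granules form, and C/EBPβ takes over when granulocytes are made in response to infection. Gfi1 is a zinc finger repressor that favours neutrophils over monocytes, Runx1 and Myb act mostly in progenitors and early granulocytes, and Fli1 is an ETS factor best known in megakaryocytes and blood progenitors. Cebpz carries the family name, but its product is a CCAAT-box binding and nucleolar protein without the leucine zipper of the others.

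The part of the coding sequence for the basic region shows how alike the 4 leucine zipper members are. Coding windows of 60 bases from the mouse reference GRCm38 are given 5′ to 3′, with capitals at the bases that differ from Cebpa.
Cebpa: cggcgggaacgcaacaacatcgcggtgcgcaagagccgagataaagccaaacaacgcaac
Cebpb: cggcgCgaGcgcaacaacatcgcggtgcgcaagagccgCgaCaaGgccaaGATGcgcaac
Cebpd: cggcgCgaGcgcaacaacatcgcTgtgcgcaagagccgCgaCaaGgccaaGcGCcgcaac
Cebpe: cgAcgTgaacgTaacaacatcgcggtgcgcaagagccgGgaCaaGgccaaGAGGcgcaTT
Within this window Cebpb and Cebpd each differed from Cebpa at 9 bases and Cebpe at 12 bases, and all 4 shared the 14 bases gtgcgcaagagccg. The longest run of identical bases between any transcripts of 2 of these genes was 29, between Cebpa and Cebpb. Cebpa and Cebpz shared no run longer than 11 bases.

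The bases just upstream of the annotated starts are shown for Cebpb and Cebpa, the C/EBP genes that rose after R848 in both genotypes. They are the 250 bases before the RefSeq start on GRCm38.p6, at chr2:167688665-167688914 for Cebpb and chr7:35119043-35119292 for Cebpa, both on the plus strand. Capitals mark matches to TGACG, the core of a cAMP response element, or to a simplified NF-kB motif, on either strand.
Cebpb: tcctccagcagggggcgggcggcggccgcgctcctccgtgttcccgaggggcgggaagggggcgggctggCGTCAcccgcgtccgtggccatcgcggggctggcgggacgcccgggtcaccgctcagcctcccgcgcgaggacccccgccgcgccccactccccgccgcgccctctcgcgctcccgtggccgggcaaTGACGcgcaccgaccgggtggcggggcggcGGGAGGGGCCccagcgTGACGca
Cebpa: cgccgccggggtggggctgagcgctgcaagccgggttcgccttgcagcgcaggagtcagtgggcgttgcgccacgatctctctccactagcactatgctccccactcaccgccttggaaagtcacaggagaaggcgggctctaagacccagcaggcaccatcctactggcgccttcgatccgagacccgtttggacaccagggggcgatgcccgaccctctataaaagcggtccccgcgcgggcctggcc
The Cebpb stretch held 3 matches to TGACG, beginning at -180, -53 and -7 from the start, and 1 match to the NF-kB motif beginning at -23. At least 1 match was present in 17.8% and 17.6%, respectively, of the 32851 windows of 250 bases before all annotated mouse starts. No match to these motifs, to TTGCNNAA (C/EBP, in 9.56% of windows), GAGGAA (PU.1, 23.3%), TGTGGT (RUNX, 14.0%) or AACNGTT (Myb, 3.8%) lay in the Cebpa stretch. Of the other members with a window, Gfi1, which did not pass after R848 in either genotype, had NF-kB matches beginning at -71 and -52 and a C/EBP match at -143 from one of its starts. Runx1, which fell in both, had a PU.1 match at -46 from one start and Myb matches at -166 and -27 from another, and Myb had none. A match is a string of letters and not a measured binding site. The Cebpb stretch was 81.6% G or C and the Cebpa stretch 66.4%, and the shares were taken over all windows, whatever their base content.

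The libraries were shallow, with 562446 to 668857 counts on genes in WT and 716440 to 1177972 in Padi4 KO, so that 3 counts, the floor used here, equal 2.55 to 5.33 CPM (counts scaled to library size) and cover counting error only. Duplicates differed by more than counting noise, least in unstimulated Padi4 KO (chi-square over its degrees of freedom of 1.05) and most in WT after R848 (1.67), so results that rest on one library of WT after R848 are given without it. Reads on Padi4 numbered 590 and 527 in WT libraries without and 166 and 234 in those with R848, and in the Padi4 KO libraries 40 and 54 without and 34 and 21 with R848. Of 10 defining neutrophil markers, 9 were in the table and all 9 had counts, Ly6g not being matched. Their summed level was 108000 to 128000 CPM in WT and 90400 to 98600 CPM in Padi4 KO. Changes below are log2 fold changes with their standard error (SE), and a change passed at a false discovery rate (FDR) below 0.1 in edgeR's quasi-likelihood test over 12254 genes.

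In unstimulated WT neutrophils, the members separated into 3 abundant and 7 less abundant transcripts when levels were set per kilobase of exon. Cebpb stood at 247 ± 3.78 CPM per kb (SD, n = 2), Spi1 at 223 ± 3.75 and Cebpe at 216 ± 28.8. The Cebpb libraries, at 245 and 250, lay above those of Spi1, at 220 and 225, whereas the Cebpe libraries, at 196 and 236, lay on both sides of Spi1. Cebpd followed at 69.0 ± 1.14, Fli1 at 33.1 ± 2.07, Cebpa at 24.0 ± 2.52 and Gfi1 at 15 ± 4.05 CPM per kb. The order rests on annotated exon lengths, and the annotation used for counting is not known. Cebpd had about as many counts as Cebpe, 169 and 148 against 157 and 170, over 3746 bp against 1241 bp of exon. The lowest were Myb at 6.72 ± 0.771, Cebpz at 5.84 ± 1.69 and Runx1 at 4.85 ± 0.854 CPM per kb, whose libraries overlapped those of a neighbour in this order. After R848 the order in WT was Cebpb at 827 ± 141, Spi1 at 363 ± 41 and Cebpe at 77.4 ± 4.56 CPM per kb, followed by Cebpd at 60.9 ± 6.75 and Cebpa at 49.6 ± 14.3, which overlapped. The remaining 5 lay between 1.79 (Runx1) and 19.2 (Fli1) CPM per kb. Cebpb thus had the highest level per kb in both conditions in WT, as also in Padi4 KO, at 304 ± 1.34 and 596 ± 15.6 CPM per kb.

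**Figure D1:**
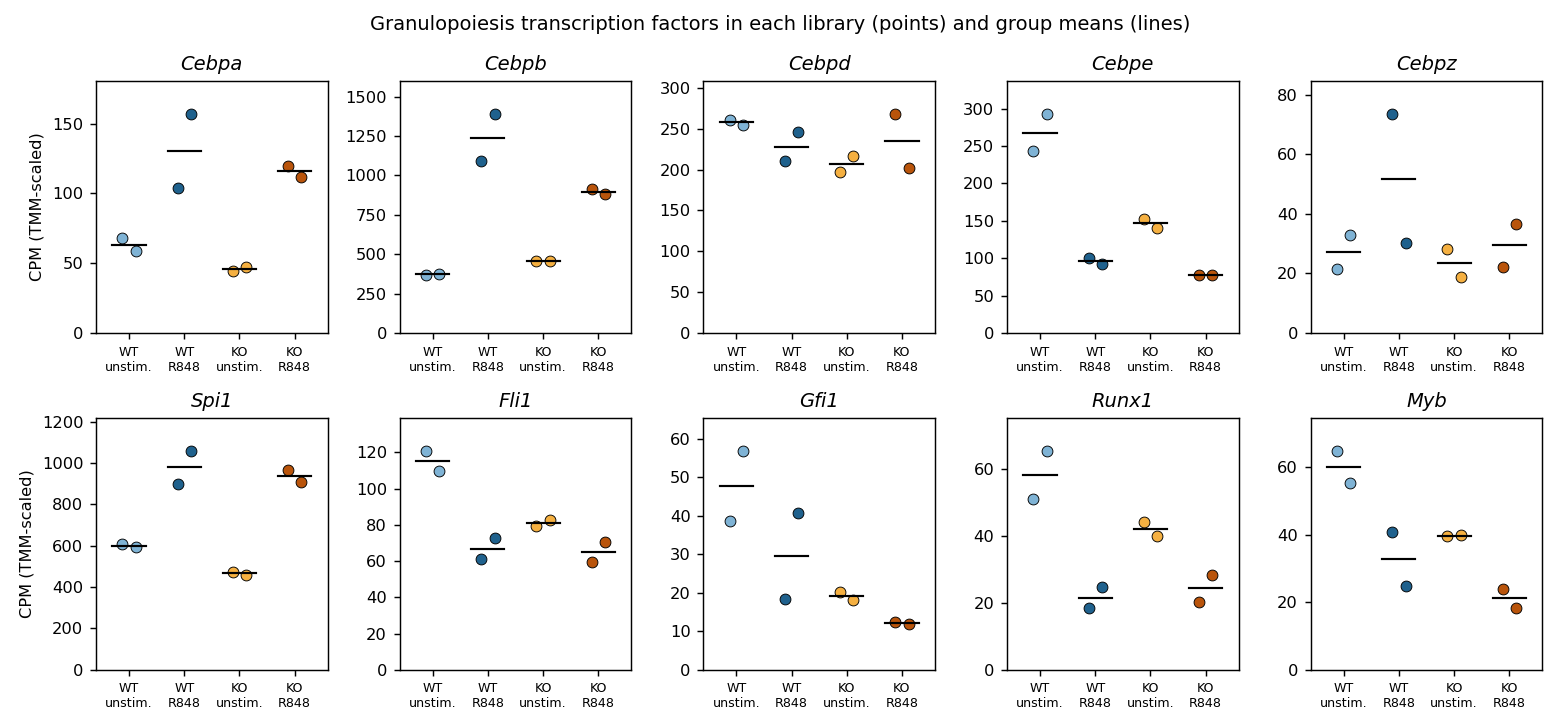
Level of each of the 10 factors in each library, as CPM scaled with TMM factors on separate linear axes from 0 (points, 2 libraries per group), with a line at the group mean. Cebpa, Cebpb and Spi1 lie higher after R848 in both genotypes, Cebpe and Runx1 lie lower, and Gfi1 is between 11.9 and 20.3 CPM in Padi4 KO against 18.4 to 56.9 CPM in WT.

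In WT neutrophils, Cebpa, Cebpb and Spi1 were higher after R848, and Cebpe, Runx1, Fli1 and Myb lower. Of the 10 members, 4 passed as higher, the fourth being Cebpz, and 4 as lower, against 13.5% and 16.0% of all 12254 genes tested. Among the 6912 genes with at least 10 counts on average, to which all members belong, the shares were 22.1% and 23.2%. The median of the members was -0.41, and that of all genes tested -0.17. By the study's added limit of a change over 2-fold, which 18.0% of genes met in either direction, Cebpa and Cebpb remained as higher, and Cebpe and Runx1 as lower. Cebpa was under that limit with library size alone (0.75).

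Cebpb, the emergency granulopoiesis factor, had 238 and 218 counts in unstimulated WT and 536 and 788 after R848. Scaled, these were 368 and 376 CPM before and 1090 and 1390 CPM after, well apart. The rise was 1.75 (SE 0.10, FDR 1.3e-73). Cebpa, the factor of granulocyte commitment, had 44 and 34 counts (68.0 and 58.7 CPM) without and 51 and 89 counts (104 and 157 CPM) with R848. The groups did not overlap, although the libraries after R848 stood apart from each other, and the rise was 1.06 (SE 0.21, FDR 3.68e-06). Spi1, which encodes PU.1, rose by less, from 608 and 593 CPM to 900 and 1060 CPM, or 0.71 (SE 0.09, FDR 1.33e-13). The rise of Spi1 was 0.40 (FDR 0.000101) with library size alone. Cebpz had 14 and 19 counts before and 36 and 17 after R848, and these groups overlapped. Its change of 0.90 (SE 0.33, FDR 0.024) rested on the library with 36 counts, without which it was 0.30 (FDR 0.712), and it did not pass without the first unstimulated WT library (0.62, FDR 0.298), with DESeq2 (0.99, FDR 0.186) or with library size alone (0.59, FDR 0.164).

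Cebpe, the factor of specific granule formation, was counted 157 and 170 times in WT without R848 and 49 and 52 times with it, or 243 and 293 CPM against 100 and 92.0 CPM. It fell by 1.48 on the log2 scale (SE 0.17, FDR 5.55e-18). Runx1, the runt factor of blood progenitors, had 33 and 38 counts before and 9 and 14 after R848, a fall of -1.40 (SE 0.35, FDR 0.000165). Fli1 went from 78 and 64 counts to 30 and 41 (-0.78, SE 0.22, FDR 0.00162), but without the first library of WT after R848 its change was -0.54 (FDR 0.128). Myb, a factor of dividing progenitors, went from 42 and 32 counts to 20 and 14 (-0.90, SE 0.31, FDR 0.012), but its change was -0.46 (FDR 0.43) without the second library of WT after R848 and -0.77 (FDR 0.136) without the first unstimulated WT library, and it did not pass with DESeq2 (-0.82, FDR 0.198). These counts are low, and each of the 4 genes was lower in both libraries after R848 than in either library before it.

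Cebpd and Gfi1 did not pass in WT. Cebpd, an acute phase member of the C/EBP family, had 169 and 148 counts before and 103 and 139 after R848, with a change of -0.17 and a 95% interval from -0.44 to 0.09, but passed as lower with library size alone (-0.48, FDR 0.00257). Gfi1 had 25 and 33 counts before and 9 and 23 after, with a change of -0.64 and an interval from -1.28 to 0.00. Its libraries after R848 lay far apart, at 18.4 and 40.7 CPM. Without the first of them the change was -0.08 (FDR 0.954), without the second -1.26 (FDR 0.0406), and it passed in 5 of 15 alternatives.

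Sums of marker genes were lower after R848 beside these values in WT. From unstimulated cells to those with R848, the summed level of the 8 megakaryocyte markers went from 101 to 120 CPM to 19.4 to 19.7 CPM, and that of the 8 markers of stem and progenitor cells from 51.6 to 56.2 CPM to 25.4 to 26.2 CPM. The 11 markers of immature neutrophils went from 53900 to 55300 CPM to 38100 to 38800 CPM, and the 8 of stroma and endothelium, among which Adipoq was at 0, from 201 to 229 CPM to 32.9 to 39.3 CPM. Their part in the falls of Runx1, Fli1, Myb and Cebpe was not tested.

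**Figure D2:**
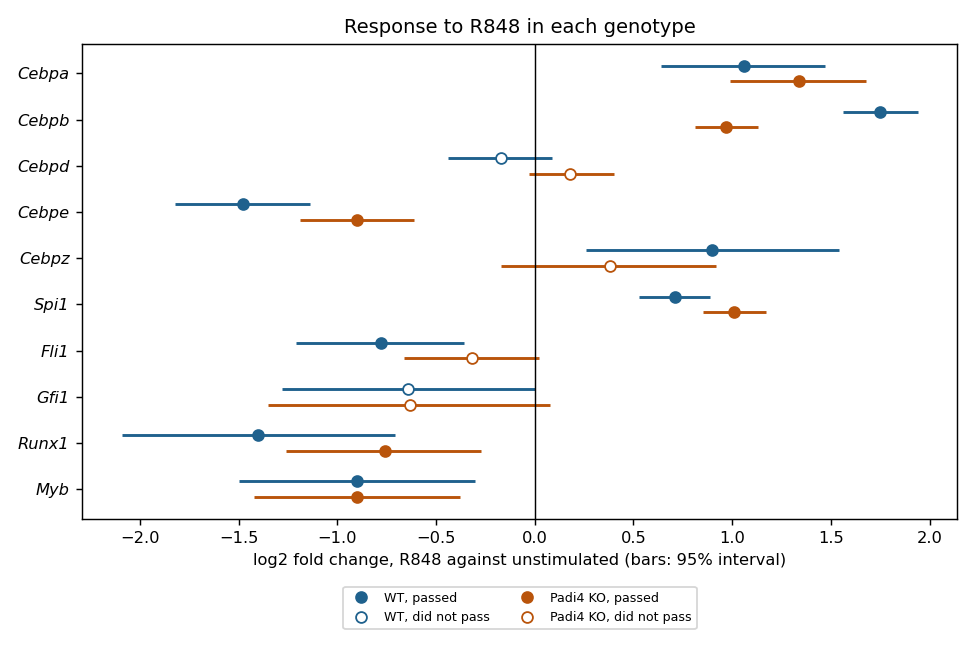
Response of each factor to R848 in WT (blue) and Padi4 KO (orange) neutrophils as log2 fold change against unstimulated cells, with 95% intervals as bars, filled points for FDR below 0.1 and open points otherwise. The Cebpb points, 1.75 in WT and 0.97 in Padi4 KO, have intervals that do not overlap.

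In Padi4 KO neutrophils, Cebpa, Cebpb and Spi1 were again higher after R848, and Cebpe, Runx1 and Myb lower. These 3 higher and 3 lower members compare with 19.2% and 15.9% of all genes tested, and with 30.5% and 20.4% of the genes with at least 10 counts on average. Over all 10 members the median was -0.07, against -0.03 over all genes. Cebpa rose from 39 and 65 counts to 135 and 122, or from 44.1 and 47.1 CPM to 120 and 112 CPM (1.34, SE 0.18, FDR 9.2e-14). Spi1 went from 419 and 633 counts to 1085 and 989, or from 473 and 459 CPM to 964 and 908 CPM (1.01, SE 0.08, FDR 2.16e-33). Both of these and no other member passed the 2-fold limit, met by 16.9% of genes. Spi1 was only just past it and fell under it with DESeq2 and with relative log expression factors (0.92 each). Library size alone put both under it, at 0.63 for Spi1 and 0.96 for Cebpa.

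For Cebpb, counts in Padi4 KO were 403 and 632 without R848 and 1028 and 958 with it. This corresponded to 455 and 458 CPM before and 913 and 880 CPM after, with a rise of 0.97 (SE 0.08, FDR 8.63e-31). The rise was 0.60 (FDR 1.26e-11) with library size alone. Cebpe had 135 and 193 counts (153 and 140 CPM) before and 87 and 85 counts (77.3 and 78.1 CPM) after, a fall of -0.90 (SE 0.15, FDR 6.7e-09). Myb, with 35 and 55 counts against 27 and 20, fell by 0.90 on the log2 scale (SE 0.27, FDR 0.00261). Runx1, with 39 and 55 counts against 23 and 31, had a change of -0.76 (SE 0.25, FDR 0.0091), which did not pass with DESeq2 (-0.86, FDR 0.142) or on counts thinned to the smallest library (-0.57, FDR 0.241).

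The other 4 did not pass in Padi4 KO. Fli1 had 70 and 114 counts before and 67 and 77 after (-0.32, interval -0.66 to 0.02), and Gfi1 had 18 and 25 before and 14 and 13 after (-0.63, interval -1.35 to 0.08). Cebpd had 174 and 298 counts before and 302 and 220 after (0.18, interval -0.03 to 0.40). Cebpz had 25 and 26 before and 25 and 40 after (0.38, interval -0.17 to 0.92). Scaled, Cebpd and Cebpz overlapped between treatments, while Fli1 and Gfi1 were lower in both libraries after R848. Fli1 passed as lower in 6 of 15 alternatives and Gfi1 in 3. In Padi4 KO too, sums of megakaryocyte markers (207 to 230 CPM without and 46.7 to 48.5 CPM with R848), stem and progenitor markers (43.5 to 47.5 and 11.5 to 17.8 CPM), immature neutrophil markers (43100 to 43400 and 27500 to 28400 CPM) and stroma markers (523 to 661 and 40.7 to 47.6 CPM) were lower after R848, and their part was not tested.

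Whether the genotypes responded differently was tested as the difference of the responses, Padi4 KO minus WT. Cebpb was the 1 member of 10 that passed, with a lower response in Padi4 KO, against 1.26% of all genes passing as lower, 3.44% as higher and 4.69% in either direction. Among genes with at least 10 counts on average, 2.16% passed as lower and 5.84% as higher. The difference was -0.77 (SE 0.13, interval -1.02 to -0.53, FDR 3.62e-07). Cebpb started higher and ended lower in Padi4 KO. Among the 6912 genes with at least 10 counts on average, 5.24% had a lower value of this difference. Without the first library of WT after R848 the difference was -1.21 (FDR 1.21e-20), and without the second -0.81 (FDR 2.39e-08). Exons of Cebpb share 312 bp, 20.7% of their length, with Tmem189 on the opposite strand, and the strand setting of the counting is not known. Tmem189 itself had 70 and 50 counts in unstimulated WT, 77 and 79 in WT after R848, 71 and 106 in unstimulated Padi4 KO and 133 and 120 in Padi4 KO after R848, fewer than Cebpb in every library.

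For the other 9 members the difference did not pass, and the intervals leave room for sizeable differences in either direction for the scarce genes. Cebpe had a difference of 0.58 (interval 0.13 to 1.02, FDR 0.168) and Spi1 of 0.30 (interval 0.06 to 0.54, FDR 0.191). Cebpa had 0.28 (interval -0.27 to 0.82) and Cebpd 0.35 (interval 0.01 to 0.70, FDR 0.344). Runx1 had 0.64 (interval -0.21 to 1.49), Fli1 0.46 (interval -0.08 to 1.00) and Cebpz -0.52 (interval -1.36 to 0.32). Gfi1 at 0.01 (interval -0.96 to 0.97) and Myb at 0.00 (interval -0.79 to 0.80) had values near 0 with wide intervals. The median of the 10 was 0.29, against 0.19 over all genes.

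The make-up of the C/EBP transcripts moved with R848 in both genotypes and does not depend on how libraries are scaled to each other. The sizes of the shares do depend on the exon lengths used. Cebpb took 45.7% and 43.4% of the summed level per kb of Cebpa, Cebpb, Cebpd and Cebpe in unstimulated WT and 80.5% and 82.3% after R848. In Padi4 KO it took 61.2% and 61.8% before and 77.2% and 78.6% after, so that the unstimulated libraries of the genotypes were further apart than those with R848. Cebpe took 36.5% and 41% in unstimulated WT, 24.8% and 22.9% in unstimulated Padi4 KO, and between 6.58% and 8.92% in all 4 libraries with R848. Cebpd took 11.8% and 13% in unstimulated WT and 5.83% and 6.21% after R848, against 10.6% and 11.7%, and then 7.25% and 9.1%, in Padi4 KO. Cebpa was the smallest share throughout, at 3.38% to 5.78%.

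**Figure D3:**
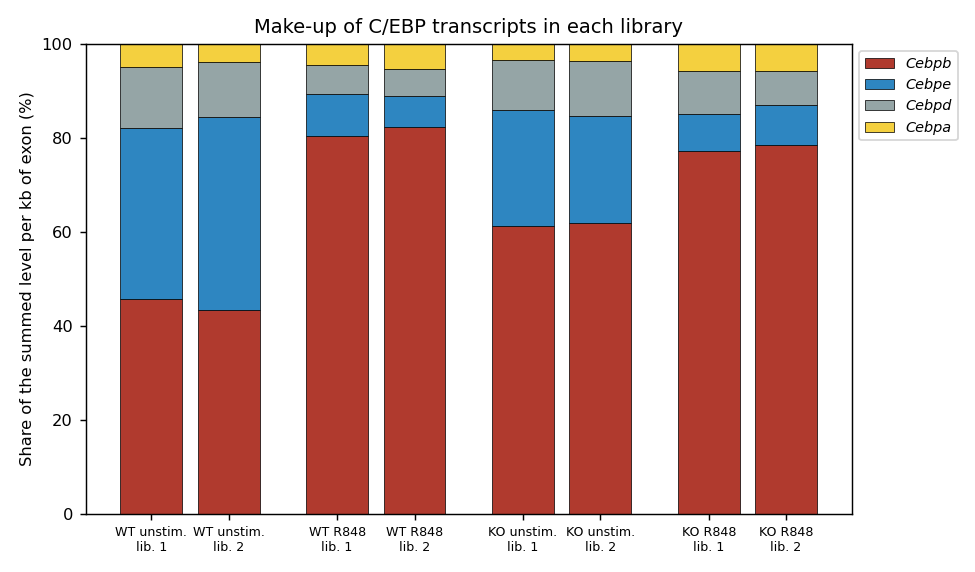
Make-up of the C/EBP transcripts in each of the 8 libraries, as the share of each gene in the summed level per kb of exon of Cebpa, Cebpb, Cebpd and Cebpe. Cebpb fills 43.4% to 61.8% of the bars without R848 and 77.2% to 82.3% with it, mostly in place of Cebpe.

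Ratios of counts inside a library gave the same picture for Cebpb against Cebpe. There were 1.52 and 1.28 Cebpb counts for each Cebpe count in unstimulated WT and 10.9 and 15.2 after R848. In Padi4 KO there were 2.99 and 3.27 before and 11.8 and 11.3 after. Cebpb against Cebpa moved in opposite directions, from 5.41 and 6.41 to 10.5 and 8.85 in WT and from 10.3 and 9.72 to 7.61 and 7.85 in Padi4 KO. Cebpe against Cebpa fell from between 2.97 and 5.0 in the unstimulated libraries to below 1 with R848, at 0.961 and 0.584 in WT and 0.644 and 0.697 in Padi4 KO. An exact permutation of 2 against 2 libraries cannot pass, so the ratios were not tested and are descriptions.

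Without stimulation, Padi4 KO neutrophils had less of most members than WT, with Gfi1 and Cebpe furthest down, and Cebpb was higher. Of the 10, 6 passed as lower (Cebpd, Cebpe, Spi1, Fli1, Gfi1 and Myb) and 1 as higher, against 14.4% and 9.54% of all genes tested, and 24.3% and 12.4% of those with at least 10 counts on average. Over all 10 members the median was -0.47, against -0.03 over all genes and -0.16 over those with at least 10 counts. The size of these differences shifts with the scaling. The median over genes with at least 10 counts was -0.162 with TMM factors, -0.106 with relative log expression factors and 0.124 with library size alone. For the responses to R848 in WT and Padi4 KO, the same median was -0.073 and 0.0775 with TMM factors and -0.378 and -0.299 with library size alone. With library size alone, 2 members passed as lower, and with DESeq2 3 did.

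Gfi1, the repressor that favours neutrophils over monocytes, had 25 and 33 counts in unstimulated WT and 18 and 25 in the deeper Padi4 KO libraries, or 38.7 and 56.9 CPM against 20.3 and 18.1 CPM. The difference was -1.31 (SE 0.30, FDR 0.000169), and only 0.506% of the genes with at least 10 counts on average had a lower value. Cebpe was at 243 and 293 CPM in WT and 153 and 140 CPM in Padi4 KO, a difference of -0.88 (SE 0.13, FDR 4.37e-10) below which 4.28% of genes lay. Gfi1 and Cebpe passed as lower in all 15 alternatives tried. Cebpb was at 368 and 376 CPM in WT and 455 and 458 CPM in Padi4 KO (0.30, SE 0.10, FDR 0.0174). The Cebpb difference was 0.58 (FDR 2.06e-07) with library size alone and 0.28 without the first unstimulated WT library. It passed in 14 of 15 alternatives.

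Spi1 was at 608 and 593 CPM in WT and 473 and 459 CPM in Padi4 KO, a difference of -0.37 (SE 0.09, FDR 0.000663), which with library size alone was -0.08 (FDR 0.649). Fli1 had a difference of -0.51 (SE 0.17, FDR 0.0203), Myb of -0.60 (SE 0.23, FDR 0.0545) and Cebpd of -0.31 (SE 0.12, FDR 0.0477). Of 15 alternatives, 9, 6 and 4, respectively, kept these 3 past the threshold. With DESeq2 the differences were -0.46 for Fli1, -0.54 for Myb and -0.26 for Cebpd, and with library size alone -0.22, -0.31 and -0.03. Without the second library of WT after R848 that of Cebpd was -0.16 (FDR 0.359). Cebpa at 68.0 and 58.7 CPM against 44.1 and 47.1 CPM (-0.47, FDR 0.138), Runx1 (-0.48, FDR 0.152) and Cebpz (-0.25, FDR 0.677) did not pass. Fewer cells of a type and less RNA of a gene in each cell cannot be told apart in these bulk samples.

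Markers of other cells differed between the genotypes beside these values. The summed level of 11 markers of immature neutrophils was 53900 to 55300 CPM in unstimulated WT and 43100 to 43400 CPM in unstimulated Padi4 KO. Erythroid markers, of which 12 of 18 in the table had counts and the 6 hemoglobin genes were at 0, summed to 133 to 145 CPM in WT and 1350 to 1400 CPM in Padi4 KO. The 8 markers of stem and progenitor cells summed to 51.6 to 56.2 and 43.5 to 47.5 CPM, and the 10 monocyte markers to 1480 to 1600 and 2240 CPM. The 8 megakaryocyte markers summed to 101 to 120 CPM in WT and 207 to 230 CPM in Padi4 KO, and the 8 of stroma and endothelium, among which Adipoq was at 0, to 201 to 229 and 523 to 661 CPM. The magnetic separation of neutrophils is meant to remove cells of these other types. The part of these cells in the differences was not tested.

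**Figure D4:**
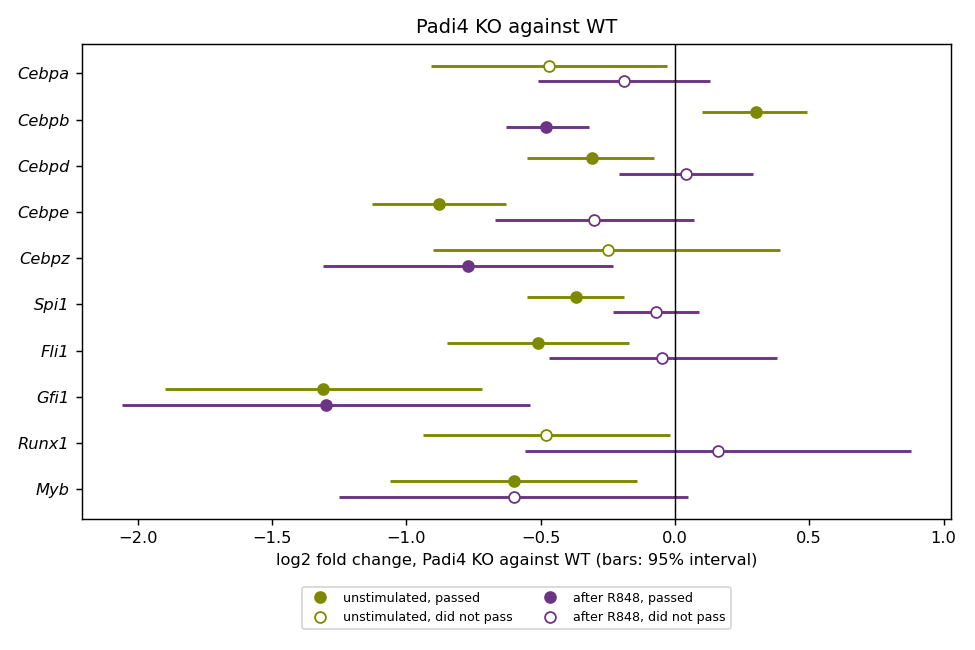
Padi4 KO against WT for each factor, as log2 fold change without stimulation (green) and after R848 (purple), with 95% intervals as bars, filled points for FDR below 0.1 and open points otherwise. Gfi1 lies at -1.31 and -1.30, while Cebpb lies at 0.30 without and -0.48 with R848.

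After R848, Cebpb, Gfi1 and Cebpz passed as lower in Padi4 KO, and no member passed as higher, while 7.84% of all genes passed as lower and 9.44% as higher, and 13.5% and 12.9% of those with at least 10 counts on average. For the 10 members the difference was -0.25 at the median, against 0.08 over all genes. Cebpb was at 1090 and 1390 CPM in WT and 913 and 880 CPM in Padi4 KO, a difference of -0.48 (SE 0.08, FDR 9.56e-08) that passed in all 15 alternatives. Its size ranged from -0.26 with library size alone to -0.78 without the first library of WT after R848. Gfi1 counts were 9 and 23 in WT against 14 and 13 in Padi4 KO, or 18.4 and 40.7 CPM against 12.4 and 11.9 CPM. Its difference was -1.30 (SE 0.39, FDR 0.0082), and -0.66 (FDR 0.592) without the second library of WT after R848. Cebpz differed by -0.77 (SE 0.28, FDR 0.0413), but its groups overlapped, and without the first library of WT after R848 the difference was -0.18 (FDR 0.848), and without the first library of Padi4 KO after R848 -0.56 (FDR 0.293). It passed in 10 of 15 alternatives and was also lost with DESeq2 (-0.90, FDR 0.307), library size alone (-0.56, FDR 0.179) and thinned counts (-0.80, FDR 0.112).

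The other 7 did not pass after R848. Cebpe, at 100 and 92.0 CPM in WT and 77.3 and 78.1 CPM in Padi4 KO, differed by -0.30 (interval -0.67 to 0.07), and Myb by -0.60 (interval -1.25 to 0.05). Spi1 differed by -0.07 (interval -0.23 to 0.09), Cebpa by -0.19 (interval -0.51 to 0.13) and Cebpd by 0.04 (interval -0.21 to 0.29). Spi1 and Cebpa passed as lower without the first library of WT after R848 (-0.32, FDR 0.00321, and -0.58, FDR 0.0223), as did Myb without the second (-1.02, FDR 0.0875). The scarcer Fli1 at -0.05 (interval -0.47 to 0.38) and Runx1 at 0.16 (interval -0.56 to 0.88) had wider intervals. Markers of immature neutrophils summed to 38100 to 38800 CPM in WT and 27500 to 28400 CPM in Padi4 KO after R848, those of stem and progenitor cells to 25.4 to 26.2 and 11.5 to 17.8 CPM, and erythroid markers to 31.4 to 60.6 and 1470 to 1490 CPM. Their part was not tested.

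A wider list of factors of blood cell formation was led by Ets2, Zeb2 and Bcl6 after R848. Of 38 tested of 39 listed, 9 passed as higher and 11 as lower after R848 in WT, and 14 and 13 in Padi4 KO, beside 13.5% and 16.0% of all genes tested in WT and 19.2% and 15.9% in Padi4 KO. Ets2, an ETS factor activated by Ras signalling, had 39 and 45 counts in unstimulated WT and 406 and 432 after R848 (3.53, SE 0.17), and 95 and 153 against 542 and 479 in Padi4 KO (2.07, SE 0.12). Its response was lower in Padi4 KO by -1.46 (SE 0.21, FDR 2.21e-10). Zeb2, a repressor that shapes myeloid fate, rose by 3.09 (SE 0.30) in WT and 2.0 (SE 0.19) in Padi4 KO, with a difference of -1.09 (SE 0.35, FDR 0.0467). Bcl6, a zinc finger repressor, rose by 1.41 (SE 0.14) and 1.63 (SE 0.12), a difference of 0.22 that did not pass (FDR 0.696).

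Between the genotypes, 8 of these 38 factors passed as higher and 9 as lower in unstimulated Padi4 KO, and 4 as higher and 10 as lower after R848. Of all genes tested, 9.54% and 14.4% passed without stimulation and 9.44% and 7.84% after R848. Those furthest up were factors of red cells and megakaryocytes, whose markers were higher in the same libraries. The summed erythroid markers were 133 to 145 CPM in WT and 1350 to 1400 CPM in Padi4 KO without stimulation, and 31.4 to 60.6 and 1470 to 1490 CPM after R848. Those of megakaryocytes were 101 to 120 and 207 to 230 CPM, and 19.4 to 19.7 and 46.7 to 48.5 CPM after R848, and their part in the differences was not tested. Zfpm1, the partner of GATA1, had 5 and 3 counts in unstimulated WT and 53 and 86 in unstimulated Padi4 KO, and 1 and 3 against 95 and 82 after R848. Tal1 had 12 and 3 against 66 and 98, and 1 and 2 against 70 and 48 after R848. Gata1 had 4 and 4 against 40 and 62, and 0 and 0 against 44 and 42 after R848, and Gfi1b, the erythroid relative of Gfi1, had 2 and 0 against 24 and 26, and 0 and 0 against 41 and 54. The WT libraries with 0 counts are below the floor of 3 counts, so no fold is given for these. Gfi1b and Gfi1, close relatives whose longest run of identical bases is 27, differed in opposite directions between the genotypes.

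Among 16 tested genes that regulate the members or act upstream of them, Trib1 had the smallest p after R848 in both genotypes. Trib1 encodes a pseudokinase that brings C/EBPα to the ubiquitin ligase COP1. It had 57 and 50 counts in unstimulated WT and 234 and 226 after R848, and 64 and 115 against 160 and 165 in Padi4 KO. It rose by 2.32 (SE 0.16) in WT and 0.89 (SE 0.15) in Padi4 KO, and the difference of -1.43 (SE 0.22, FDR 2.52e-08) went the same way as that of Cebpb. Id2, an inhibitor of basic helix-loop-helix factors, went the other way, with a difference of 0.92 (SE 0.22, FDR 0.00256), and was lower in unstimulated Padi4 KO by -1.04 (SE 0.16, FDR 3.07e-09). Kdm1a, a histone demethylase recruited by Gfi1, rose by 0.95 (SE 0.28, FDR 0.00294) in WT and 0.76 (SE 0.21, FDR 0.00108) in Padi4 KO. The Kdm1a changes were 0.65 (FDR 0.0578) and 0.38 (FDR 0.135) with library size alone, so that in Padi4 KO did not pass. Rfwd2, the older symbol of the COP1 gene, passed as higher in Padi4 KO (0.63, SE 0.13, FDR 8.8e-06) and had 0.29 (SE 0.15, FDR 0.169) in WT. Its difference of response of 0.34 (SE 0.20) did not pass (FDR 0.489), and it was lower in unstimulated Padi4 KO by -0.53 (SE 0.15, FDR 0.00327). These Rfwd2 calls were lost with library size alone, at 0.25 (FDR 0.127) in Padi4 KO and -0.24 (FDR 0.312) for the unstimulated difference. They held with relative log expression factors, at 0.54 and -0.47. In WT its change was -0.02 and 0.36, respectively. Csf3r, the receptor of G-CSF, had small changes of -0.16 (SE 0.07, FDR 0.0862) in WT and 0.16 (SE 0.07, FDR 0.0577) in Padi4 KO, was lower in unstimulated Padi4 KO by -0.20 (SE 0.07, FDR 0.0225), and its difference of response of 0.33 (SE 0.10) passed (FDR 0.0394). The signs for Csf3r depended on the scaling. With library size alone its change in Padi4 KO was -0.21 (FDR 0.00702) and its unstimulated difference 0.08 (FDR 0.51), and the difference of response was 0.26 (FDR 0.195) with that scaling and 0.17 (FDR 0.545) with relative log expression factors. Stat3, a transducer of the G-CSF signal, had 0.17 (SE 0.11) and 0.09 (SE 0.10) and did not pass, and both were below 0 with library size alone. Of the 16, 4 passed as higher and 2 as lower in WT, 8 and 1 in Padi4 KO, 0 and 4 for the genotypes without stimulation, 1 and 2 after R848, and 2 and 1 for the difference of responses. The shares of all genes tested, higher and lower, were 13.5% and 16.0% in WT, 19.2% and 15.9% in Padi4 KO, 9.54% and 14.4% between genotypes without stimulation, 9.44% and 7.84% after R848, and 3.44% and 1.26% for the difference.

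Gfi1, Cebpe and Cebpb had the widest ranges of group means, at 1.76, 1.75 and 1.72 on the log2 CPM scale, and Cebpd the narrowest, at 0.32. The genes nearest to each in pattern were found over 8 libraries among 6912 genes by the root mean square distance of centred log2 CPM. Those of Cebpb were Irf5 (0.135), A530064D06Rik (0.138) and Adss (0.144), of which Irf5 encodes an interferon regulatory factor and had changes of 1.76 in WT and 1.12 in Padi4 KO. Those of Cebpe were Panct2 (0.0899), Plcb2 (0.10) and Clec12a (0.104), and Clec12a, an inhibitory lectin receptor, changed by -1.46 in WT and -1.12 in Padi4 KO. The nearest to Gfi1 were further from it, with Cdh23 at 0.227, Fgd4 at 0.250 and Rhob at 0.289.

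Each member has its own place in the genome, and GENCODE positions on GRCm38 are given for reading other data beside these. On the plus strand are Cebpa at chr7:35119293-35121928, Cebpb at chr2:167688915-167690418, Cebpd at chr16:15887286-15891031 and Spi1 at chr2:91082390-91115756. On the minus strand are Cebpe at chr14:54710360-54712174, Cebpz at chr17:78919006-78937066, Fli1 at chr9:32422204-32542861, Gfi1 at chr5:107716657-107726036, Myb at chr10:21124935-21160984 and Runx1 at chr16:92601466-92826149. All are annotated as protein coding. Besides Cebpb, Cebpd shares 562 bp (15% of its exons) with Spidr on the other strand and Myb shares 559 bp (6.26%) with Gm26577, and these counts are uncertain to that extent. The overlaps of Cebpa, Cebpz, Gfi1 and Runx1 with antisense neighbours made up 0.881% to 3.67% of their exons.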

How the data were processed

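RNA of bone marrow neutrophils was sequenced in 8 libraries, 2 for each of WT and Padi4 KO, unstimulated or after R848, grouped by their labels. The authors trimmed the reads with cutadapt 1.16 after FastQC 0.11.7, mapped them to mm10 with STAR 2.5.3a and counted them with HTSeq 0.6.1p1, and deposited raw counts per gene symbol. The annotation and strand setting are not given in the sources used here. HTSeq's summary lines, which hold reads not counted on a gene, were left out of all tests and library sizes, and 87.0% to 89.4% of the entries of a library lay on genes.

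Genes with at least 1 count in at least 2 libraries (12254) were tested in R 4.3.3 with edgeR 4.0.16 (limma 3.58.1), TMM factors, 1 mean per group and the robust quasi-likelihood fit, and p-values were adjusted over all of them by the Benjamini-Hochberg method. The biological coefficient of variation was 4.7%. Standard errors come from the fit's weights and quasi-likelihood variance. CPM values use TMM factors, except in floors and marker sums, which use library totals. Levels per kb use the union of annotated exons. On simulated counts for the R848 response in WT, 171 of 200 genes changed by 1.5 on the log2 scale were recovered among 11928 genes, with 5.52% false calls. DESeq2 1.42.0, other scalings and filters, counts thinned to the smallest library, a replicate block, stricter thresholds and leaving out each library were alternatives.

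The members and gene lists were chosen with earlier results of these data known. Besides the members and Padi4, the genes named were the 3 with the smallest p of each list in each comparison, the 3 nearest in pattern to the 3 members of widest range, and overlapping genes; the values of Gfi1b and Tal1 in further comparisons, and the markers at 0, were named after they were seen. Motifs were searched in RefSeq windows, which 5 of the 10 members had.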

Additional observations from a re-analysis of the deposited data

Results flagged for a closer look

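Cebpb was the 1 member whose response to R848 differed between the genotypes by a test of the difference itself. The difference, Padi4 KO minus WT, was -0.77 on the log2 scale (SE 0.13, FDR 3.62e-07, edgeR's quasi-likelihood test). Cebpb was higher after R848 in both libraries of both genotypes, with group means of 372 ± 5.69 and 1240 ± 212 CPM (SD, n = 2) in WT and 457 ± 2.02 and 897 ± 23.5 CPM in Padi4 KO. Monocyte markers, among which Cebpb is not listed, summed to 1480 to 1600 CPM in unstimulated WT and 2240 CPM in unstimulated Padi4 KO, and to 1340 to 1510 and 1890 to 1920 CPM after R848. Their part in the result was not tested. Groups of 2 libraries were too small for a search for single outlying libraries.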

How the results depend on the processing

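The rise of Cebpa, Cebpb and Spi1 and the fall of Cebpe after R848 kept their direction and passed in both genotypes under all 15 alternatives, as did the lower Gfi1 and Cebpe in unstimulated Padi4 KO, the lower Cebpb in Padi4 KO after R848 and its difference of response, which ranged from -1.21 to -0.76. Over all members and comparisons, 691 values kept direction and side of the threshold, 45 fell below it, 20 came past it and 40 changed sign. With a 2-fold limit, 2 members were higher and 2 lower after R848 in WT and 0 lower in Padi4 KO, 0 were higher and 1 lower in unstimulated Padi4 KO, 1 was lower after R848, and 0 differed in response. Library size alone gave 3 higher and 6 lower members after R848 in WT, 5 lower members after R848 in Padi4 KO and 2 lower in unstimulated Padi4 KO, where DESeq2 gave 3. Leaving out each library gave 3 to 5 lower members after R848 in Padi4 KO, 0 to 1 higher and 3 to 5 lower in unstimulated Padi4 KO, and 1 to 2 with a lower response in Padi4 KO, where Cebpz joined Cebpb (-1.29, FDR 0.0963) without the second library of WT after R848. The cause of these shifts was not tested.

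Of the values that changed sign, none passed the threshold in the setting reported. With library size alone these were Cebpd after R848 in Padi4 KO (-0.20), Cebpz in unstimulated Padi4 KO against WT (0.03), Cebpa (0.02), Spi1 (0.15) and Fli1 (0.17) after R848, and the differences of response of Gfi1 and Myb (-0.07 each). With relative log expression factors they were Cebpd after R848 between genotypes (-0.06, as with DESeq2) and the differences of Gfi1 and Myb (-0.15 each). The difference of Gfi1 was -0.03 on thinned counts and that of Myb -0.01 with edgeR's own filter. Leaving out each library moved the response in WT of Cebpd between -0.20 and 0.07, the response in Padi4 KO of Cebpd between -0.18 and 0.26 and of Cebpz between -0.15 and 0.63, and the unstimulated genotype difference of Cebpz between -0.54 and 0.08. After R848 it moved the genotype difference of Cebpa between -0.58 and 0.08, of Cebpd between -0.29 and 0.13, of Fli1 between -0.30 and 0.01 and of Runx1 between -0.19 and 0.33. The difference of response moved between -0.25 and 0.40 for Cebpa, -0.11 and 0.43 for Cebpd, -0.08 and 0.32 for Spi1, -0.69 and 0.50 for Gfi1 and -0.57 and 0.11 for Myb.

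Libraries share only a replicate number across groups, since deviations from the group means correlated between -0.02 and 0.0199 over 6912 genes. With the replicate number as a block, the difference of response of Cebpb was -0.76 (FDR 2.28e-07) and that of Myb -0.04. DESeq2 gave no adjusted p for the difference of response of Cebpz, Gfi1, Runx1 and Myb.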

Other observations

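Genes that C/EBP factors and PU.1 are known to act on, 23 in all with at least 10 counts on average, included risers and fallers after R848. After R848, 8 passed as higher and 9 as lower in WT, and 9 and 7 in Padi4 KO, beside 22.1% and 23.2% of all genes of that depth in WT and 30.5% and 20.4% in Padi4 KO. Cd14, a co-receptor of Toll-like receptors, had 5 and 11 counts in unstimulated WT and 1517 and 1473 after R848, and Lcn2, an iron-trapping granule protein, rose by 1.49 (SE 0.06) in WT and 1.65 (SE 0.06) in Padi4 KO. Csf1r, the receptor of macrophage colony-stimulating factor, rose by 2.72 (SE 0.13) and 2.62 (SE 0.10). Cd177, a neutrophil surface protein, fell, with changes of -1.79 (SE 0.08) and -1.67 (SE 0.07), and so did Mmp8, a collagenase of specific granules, with -1.56 (SE 0.07) and -1.45 (SE 0.07).

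In unstimulated Padi4 KO, 21 of the 23 passed as lower and 2 as higher, beside 24.3% and 12.4% of the genes with at least 10 counts on average, with a median of -0.55 against -0.03 over all genes tested and -0.16 over those with at least 10 counts on average. Chil3, a chitinase-like protein, differed by -1.09 (SE 0.06), Mmp8 by -0.91 (SE 0.06) and Ncf1, a subunit of the NADPH oxidase, by -0.80 (SE 0.07). The 2 higher genes were Cd14 (1.01, SE 0.38) and Csf1r (0.31, SE 0.14). These counts were made with TMM factors and shift with the scaling. Under library size alone, Csf3r (0.08, FDR 0.51) and Cd177 (-0.13, FDR 0.217) did not pass as lower. Chil3, Mmp8 and Ncf1 still did, at -0.81, -0.63 and -0.51. After R848, 19 passed as lower and 1 as higher, beside 13.5% and 12.9% of such genes. The lower genes included Chil3 (-1.14, SE 0.06), Cd14 (-1.06, SE 0.07) and Ltf, the lactoferrin of specific granules (-0.76, SE 0.06). Under library size alone Chil3, Cd14 and Ltf still passed, at -0.92, -0.84 and -0.54. Ncf1 (-0.08, FDR 0.52) and Cd177 (-0.07, FDR 0.622) were then lost, and Csf3r passed as higher (0.34, FDR 6.5e-05). The difference of response passed for 3 genes in each direction, beside 2.16% of such genes as lower and 5.84% as higher, with Cd14 at -2.07 (SE 0.38, FDR 3.84e-06) and Ncf1 at 0.51 (SE 0.09, FDR 1.54e-05).

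Marker sums differed between the genotypes beside these target genes. Many of the target genes, such as Ltf and Lcn2, are in the neutrophil marker lists themselves, so the sums and the target counts are not independent. In unstimulated cells the defining neutrophil markers summed to 108000 to 113000 CPM in WT and 90400 to 92500 CPM in Padi4 KO, the immature ones to 53900 to 55300 and 43100 to 43400 CPM, and the erythroid ones to 133 to 145 and 1350 to 1400 CPM. The monocyte markers, among which is Csf1r, summed to 1480 to 1600 and 2240 CPM. After R848 the defining markers summed to 115000 to 128000 and 97300 to 98600 CPM, the immature ones to 38100 to 38800 and 27500 to 28400 CPM, the erythroid ones to 31.4 to 60.6 and 1470 to 1490 CPM, and those of monocytes to 1340 to 1510 and 1890 to 1920 CPM. Their part in the result was not tested.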
